A study of Mus musculus with 4 samples.

Results

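The *Lrrtm*, neurexin and neuroligin genes form a set of synaptic adhesion genes, of which 9 were followed here: *Lrrtm1*, *Lrrtm2*, *Lrrtm3*, *Lrrtm4*, *Nrxn2*, *Nrxn3*, *Nlgn1*, *Nlgn2* and *Nlgn3*. They were found by gene name among 56748 genes measured by RNA sequencing of mouse lenses, and the set was chosen from measured values of the same libraries, so the mutant and control levels of its members are descriptions and not tests. Lenses were collected at 10 to 12 days of age from *Fsp1-cre;Pdgfrb*+/D849V mice, called mutant, and from control mice, and the study asked which transcripts differ early in lenses that later become opaque. There were 2 mutant and 2 control libraries of polyA RNA, and each library was made from lenses pooled over several mice. The D849V allele codes for a hyperactive PDGF receptor beta and is knocked into the endogenous *Pdgfrb* locus, and neither this allele nor *Fsp1-cre* is restricted to the lens. The labels give the genotype *Fsp1-cre;Pdgfrb*+/+ for both controls, while the study's methods state that control pools also took in *Pdgfrb*+/+ and *Pdgfrb*+/D849V mice without the cre. All groups were on the FVB/N background in a line that also carried a *Rosa-LSL-tdTomato* reporter.

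Neurexins are receptors at the presynaptic membrane. They are made in long and short forms from separate promoters of each gene, with many alternatively spliced variants. Neuroligins and LRRTM proteins are postsynaptic membrane proteins that bind neurexins across the synaptic cleft, neuroligins through a domain related to cholinesterase and LRRTM proteins through leucine-rich repeats. *Nlgn2* is best known at inhibitory synapses, *Nlgn1* at excitatory synapses, and *Lrrtm2* at excitatory synapses, where the LRRTM2 protein helps to hold AMPA receptors. The lens has no nerve supply of its own and consists of an epithelium and fibre cells.

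Promoters are shown for *Nlgn2* and *Lrrtm3*, the tested members with a single promoter in the table used, because these detected genes start in regions of unlike base composition. The RefSeq promoter table for GRCm38.p6 held 10 promoters of 300 bases for 6 of the 9 members, the exceptions being *Lrrtm2*, *Nrxn2* and *Nlgn3*, and only the 250 bases before the start site are printed, 5′ to 3′ along the gene, with CpG dinucleotides in capitals. The *Nlgn2* stretch lies at chr11:69837785-69838034 on the minus strand and the *Lrrtm3* stretch at chr10:64090256-64090505 on the minus strand, coordinates of GRCm38.p6, which differs from the build of the measured table.
Nlgn2: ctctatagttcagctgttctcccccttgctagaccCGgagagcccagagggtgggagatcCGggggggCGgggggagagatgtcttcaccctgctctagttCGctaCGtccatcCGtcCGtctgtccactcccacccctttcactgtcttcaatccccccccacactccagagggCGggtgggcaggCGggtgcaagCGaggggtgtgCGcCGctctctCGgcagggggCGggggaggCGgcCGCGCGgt
Lrrtm3: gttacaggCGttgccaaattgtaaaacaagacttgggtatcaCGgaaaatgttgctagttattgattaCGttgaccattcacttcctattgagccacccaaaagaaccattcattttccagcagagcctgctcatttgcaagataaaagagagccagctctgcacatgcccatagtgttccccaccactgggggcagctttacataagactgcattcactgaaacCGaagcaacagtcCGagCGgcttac
The *Nlgn2* stretch held 18 CpG dinucleotides at 67.6% G and C, and the *Lrrtm3* stretch held 6 at 46% G and C. Over the full 300 bases, *Nlgn2* had 26 CpG dinucleotides, at the 83.1 percentile of all 32851 promoters, against 10 for *Lrrtm3* and a median of 7. The letters GGGCGG, searched on both strands and known as the GC box, were matched 3 times in the *Nlgn2* promoter and 0 times in that of *Lrrtm3*, and 35.7% of all promoters held at least 1 match. TATAAA, which 13.6% of promoters held, and CCAAT, which 37.4% held, were matched in neither. The 3 *Nrxn3* start sites in the table had 2, 6 and 16 CpG dinucleotides. These matches describe the letters only.

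The libraries held between 18561682 and 18878768 reads on genes, recovered from the deposited FPKM (fragments per kilobase of gene, scaled by library size), and crystallin genes took 58.6% to 62.9% of them. Of the lens fibre markers, 9 of 10 were well expressed, led by *Cryaa* with a mean of 70329 FPKM, while *Lim2* was listed at 0 in every library, and all 7 lens epithelium markers were expressed, led by *Foxe3* at 113 FPKM. Neuronal markers were scarce: 15 of 15 had a mean under 1 FPKM, their summed level was between 1.36 and 1.63 FPKM, and *Snap25*, a core synaptic gene, had 2 and 5 reads in the mutant pools against 5 and 3 in the controls. *Pdgfrb* had 2.36 and 2.16 FPKM in the mutant pools against 2.25 and 1.79 in the controls, a log2 fold change of 0.16 ± 0.16 (SE). That level does not separate the altered allele from the normal one, so it does not check the genotype. Replicates were separate pools, and in bulk tissue fewer cells of a type and less RNA per cell cannot be told apart.

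Of the 9 members, 4 reached the mean of 0.1 FPKM required for the fit across all genes: *Lrrtm2*, *Nlgn2*, *Lrrtm3* and *Nrxn3*. *Nrxn3* did so only through the mutant libraries, as its control mean was 0.0880 FPKM. Averaged over the 4 libraries, *Lrrtm2* stood highest at 2.88 FPKM and *Nlgn2* next at 2.71 FPKM. These neighbours did not separate, since *Lrrtm2* was above *Nlgn2* in 2 of 4 libraries. They stood at the 92.0 and 91.7 percentiles of all genes in the table. Only 24534 of those genes were above 0 in any library, so the percentiles are raised by the many genes at 0. *Lrrtm3* followed at 0.765 FPKM, below *Nlgn2* in every library, and *Nrxn3* at 0.140 FPKM, below *Lrrtm3* in every library. The other 5 were each under 0.1 FPKM: *Lrrtm1* at 0.0644, *Nrxn2* at 0.0400, *Nlgn1* at 0.0273, *Nlgn3* at 0.00981 and *Lrrtm4* at 0.00208 FPKM. From *Nrxn3* down to *Lrrtm4*, the library ranges of each neighbouring pair overlapped. FPKM is scaled by a fixed length for each gene, so levels compare only roughly between genes with transcripts of unlike length. The *Lrrtm2* level may also include reads of the gene around it, as described below.

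A single gene carried most of each family. *Lrrtm2* made up 77.6% of the FPKM summed over the 4 *Lrrtm* genes, *Nrxn3* 77.8% of that over *Nrxn2* and *Nrxn3*, and *Nlgn2* 98.7% of that over the 3 neuroligins. Summed by family, the postsynaptic members were above the presynaptic ones. Neuroligins summed to between 2.40 and 3.11 FPKM in the 4 libraries and *Lrrtm* genes to between 2.71 and 5.02. *Nrxn2* and *Nrxn3* together summed to between 0.121 and 0.237. The higher sums rested mostly on *Lrrtm2* and *Nlgn2*. Gene by gene the order was mixed, with the mean of *Nrxn3* above those of *Lrrtm1*, *Nlgn1*, *Nlgn3* and *Lrrtm4*.

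**Figure D1:**
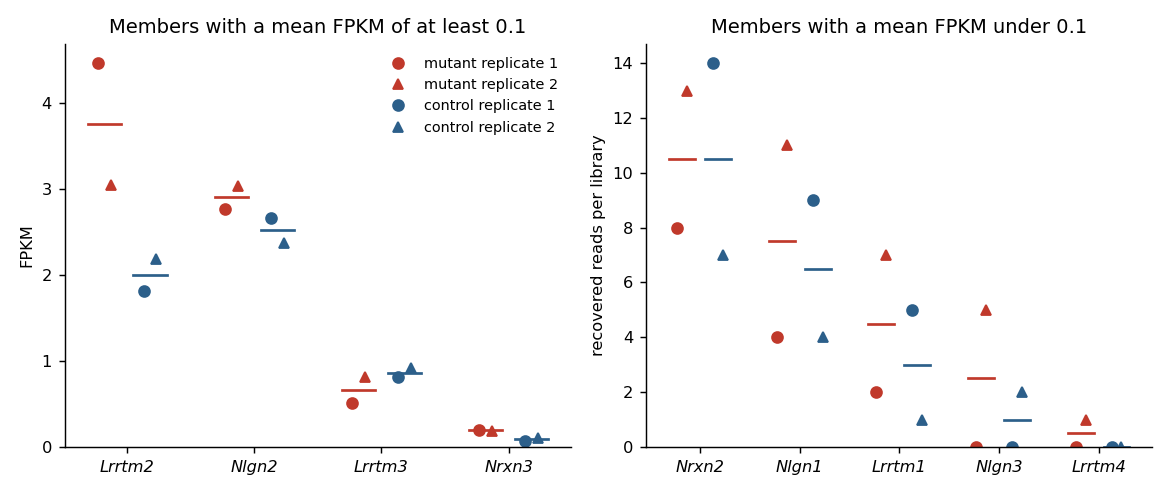
Levels of the 9 member genes by library; the left panel gives FPKM of the 4 tested members and the right panel gives reads of the 5 others, with red for mutant, blue for control, circles and triangles for replicates 1 and 2 and lines for group means. Both mutant points of *Lrrtm2* (4.47 and 3.05 FPKM) lie above both control points (1.82 and 2.19 FPKM), while *Lrrtm3* overlaps between the groups.

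Between mutant and control, *Lrrtm2* and *Nrxn3* showed the widest separation, *Nlgn2* a narrow one, and *Lrrtm3* none. These contrasts are the ones known when the members were chosen. In limma's fit across 15997 genes, 6 genes or 0.0375% passed an adjusted p under 0.05, and 0 of the 4 tested members did. With voom, limma's test for counts, on the recovered reads, 14 genes or 0.0875% passed, and 1 member, *Lrrtm2*, was among them. An unadjusted p under 0.05 was met by 1009 genes or 6.31% and by 1 member. Both mutant libraries lay above both controls for 2915 genes or 18.2% and for 3 members, both lay below for 2932 genes or 18.3% and for 0 members, and either held for 5847 genes or 36.6%. The median log2 fold change of the 4 tested members was 0.42, with 3 higher and 1 lower in the mutant, and over all tested genes it was 0.00409, with 8117 higher and 7880 lower. Since the contrast chose the members, and *Nrxn3* passed the filter only through its mutant values, nothing is read from these counts.

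*Lrrtm2* (ENSMUSG00000071862, a protein-coding gene on the minus strand of chromosome 18, 35342056 to 35348077, mm39) had 480 and 360 reads in the mutant libraries and 213 and 243 reads in the controls. Every mutant library was above every control, and mutant replicate 1 stood well above mutant replicate 2. In FPKM the libraries had 4.47 and 3.05 against 1.82 and 2.19, or 3.76 ± 1.0 against 2.0 ± 0.262 (SD, n = 2 each). The ratio of the means was 1.88, and the log2 fold change on the log2(FPKM + 0.1) scale was 0.86 ± 0.22 (SE), or 0.88 ± 0.17 with voom. Counting alone left an error of between 4.56% and 6.85% in each library, and the 95% Poisson intervals were 438 to 525 and 324 to 399 reads in the mutant libraries against 185 to 244 and 213 to 276 in the controls. The interval of neither mutant library reached that of a control, a gap that belongs to the contrast known when the members were chosen. Intervals of reads here cover counting error only. The voom call on *Lrrtm2* was lost without mutant replicate 1, without mutant replicate 2 and without control replicate 1, at log2 fold changes of 0.62, 1.17 and 0.75, and it held without control replicate 2 at 1.01.

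Macrophage markers, like *Lrrtm2*, had higher summed values in both mutant libraries than in both controls, but the order of replicates within each group was the opposite. The 6 listed summed to 1.71 and 1.86 FPKM in the mutant pools against 0.780 and 0.515 FPKM in the controls, and the 3 of them that were tested were higher in the mutant with an unadjusted p under 0.05, though neither limma nor voom called any of them. Over all tested genes, 6.31% had an unadjusted p under 0.05 in limma, and both mutant libraries lay above both controls for 18.2%. Each of the 6 had a mean under 1 FPKM, and the most abundant, the complement gene *C1qa*, had a mean of 0.592 FPKM. *C1qb* passed the filter only through the mutant pools, with 6 and 8 reads against 2 and 1 and a control mean of 0.0722 FPKM. Of the untested markers, *Csf1r* was higher in both mutant pools, and *Aif1* and *Ptprc* overlapped between the groups. Their part in the *Lrrtm2* values was not tested.

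*Lrrtm2* lies within *Ctnna1*, the gene of alpha-E-catenin, which links cadherins to actin and is read from the opposite strand. The pairing of *Lrrtm* genes with alpha-catenin genes extends to *Lrrtm1* within *Ctnna2* and *Lrrtm3* within *Ctnna3*, again on opposite strands, and *Lrrtm4* lies in none of them. In the GRCm38 annotation, 95 exon bases of *Lrrtm2* are shared with *Ctnna1* and 0 bases are shared in the other pairs. Whether reads were counted by strand is not given in the sources used here, so *Lrrtm2* reads in the shared stretch, and any unspliced *Ctnna1* reads over *Lrrtm2*, cannot be told apart from *Lrrtm2* transcripts.

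*Ctnna1* had 2626 and 2354 reads in the mutant libraries and 2143 and 2240 in the controls. It stood at 22.9 and 18.7 against 17.2 and 18.9 FPKM, a log2 fold change of 0.20 ± 0.13 (SE), and its groups overlapped in FPKM but not in reads. Set against its host, *Lrrtm2* had 18.3 and 15.3 reads per 100 *Ctnna1* reads in the mutant libraries and 9.94 and 10.8 in the controls, or 16.8% ± 2.11 against 10.4% ± 0.643 (SD, n = 2 each). This ratio is taken within each library and is free of its scaling, and both mutant libraries were above both controls. *Ctnna1* varied little beside *Lrrtm2*, so that separation largely follows from the *Lrrtm2* reads known when the members were chosen. *Ctnna2* had 1968 and 2061 against 1990 and 2400 reads, with a log2 fold change of -0.10 ± 0.14 (SE), and the *Lrrtm1* inside it had at most 7 reads. *Ctnna3* had 9 and 9 against 13 and 12 reads, fewer than the *Lrrtm3* inside it in every library. *Ctnnal1*, an alpha-catenin relative that hosts no *Lrrtm* gene, had 536 and 701 against 657 and 631 reads and a log2 fold change of -0.05 ± 0.13 (SE). None of the 3 tested alpha-catenin genes passed an adjusted p under 0.05 in limma (Benjamini-Hochberg), where the lowest was 0.811, none had an unadjusted p under 0.05, and none was called by voom.

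**Figure D2:**
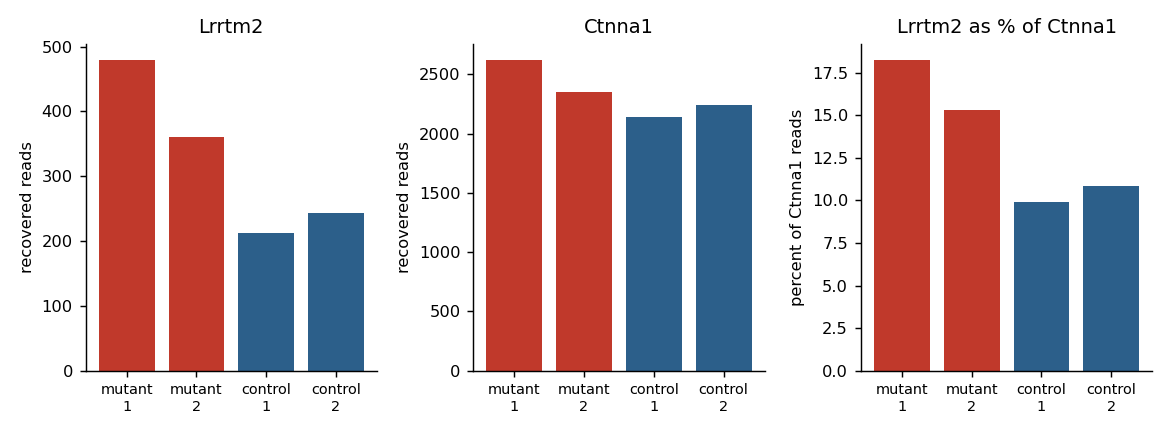
*Lrrtm2* reads, *Ctnna1* reads and *Lrrtm2* as a percentage of *Ctnna1* reads, 1 bar for each of the 4 libraries and each axis from 0. The percentage is 18.3 and 15.3 in the mutant libraries and 9.94 and 10.8 in the controls, while *Ctnna1* itself ranges only from 2143 to 2626 reads. The percentage thus mostly follows the *Lrrtm2* reads.

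The region around *Lrrtm2* was compared as well, within 1 Mb of its start, a window chosen after the values were seen. It held 36 other tested genes, of which 19 were higher and 17 lower in the mutant, with a median log2 fold change of 0.0044 and a range from -1.73 to 0.93. None of them was called by limma or voom, and 2 had an unadjusted p under 0.05: *Gm6724*, a processed pseudogene with 6 and 10 against 5 and 3 reads and a log2 fold change of 0.93 ± 0.30 (SE), and *Prob1*, with 83 and 66 against 50 and 41 reads and 0.63 ± 0.24 (SE). The groups did not overlap for 10 of the 36, with 8 higher and 2 lower. Over all tested genes, 36.6% did not overlap, with 18.2% higher and 18.3% lower, and 6.31% had an unadjusted p under 0.05. The value at -1.73 belonged to *Gm22200*, a small nucleolar RNA with at most 4 reads. *Pdgfrb*, the altered gene, is on the same chromosome as *Lrrtm2* at a distance of 25.8 Mb.

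**Figure D3:**
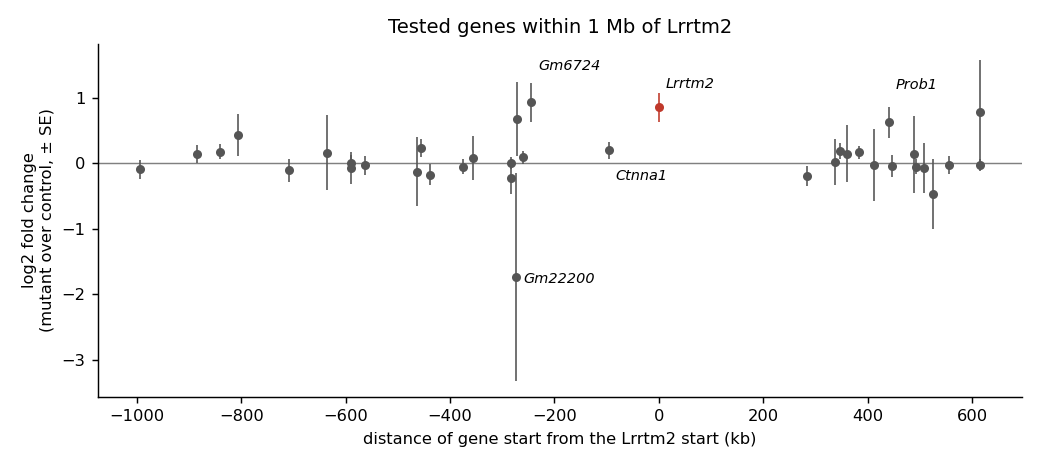
Log2 fold change of mutant over control with its SE for the tested genes within 1 Mb of the *Lrrtm2* start, by distance in kb, on the log2(FPKM + 0.1) scale. *Lrrtm2*, in red, stands at 0.86 among 36 other genes whose median is 0.0044.

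*Lrrtm3* (ENSMUSG00000042846, chromosome 10, 63764251 to 63926056, minus strand, mm39), the relative of *Lrrtm2* next in level, had 39 and 68 reads in the mutant pools against 67 and 72 in the controls. Mutant replicate 1 was low and the other 3 were alike. In FPKM the mutant libraries had 0.515 and 0.817 and the controls 0.811 and 0.919, or 0.666 ± 0.214 against 0.865 ± 0.0766 (SD, n = 2 each), and the groups overlapped. The log2 fold change was -0.36 ± 0.26 (SE), in the direction opposite to that of *Lrrtm2*, and it was -0.07 without mutant replicate 1 and -0.65 without mutant replicate 2, so that the size of the value rested on mutant replicate 1.

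*Nlgn2* (ENSMUSG00000051790, chromosome 11, 69713948 to 69728610, minus strand, mm39), the neuroligin of inhibitory synapses, had 286 and 344 reads in the mutant pools against 300 and 253 in the controls. In reads the groups overlapped. In FPKM they did not, at 2.77 and 3.04 against 2.67 and 2.37, since mutant replicate 1 was scaled by fewer reads than its total and control replicate 1 by more. The means were 2.91 ± 0.187 and 2.52 ± 0.208 FPKM (SD, n = 2 each), a difference of 0.385 FPKM, a ratio of 1.15 and a log2 fold change of 0.20 ± 0.13 (SE). The gap between the nearest mutant and control libraries was thus narrower than the gap within either group.

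*Nrxn3* (ENSMUSG00000066392, chromosome 12, 88689646 to 90301709, plus strand, mm39), the higher of the neurexin members, rested on 44 and 47 reads in the mutant pools against 17 and 25 in the controls. Both mutant libraries were above both controls and nearly equal to each other. In FPKM they stood at 0.195 and 0.189 against 0.0689 and 0.107, or 0.192 ± 0.00376 against 0.0880 ± 0.0269 (SD, n = 2 each), with a ratio of the means of 2.18. The log2 fold change depended on what was added before the logarithm: it was 0.64 ± 0.47 (SE) with 0.1 FPKM, 0.13 with 1 FPKM, 1.07 with 0.01 FPKM and 1.15 ± 0.40 (SE) with voom on reads. Its direction was the same in each, which was fixed in advance because the groups did not overlap in FPKM.

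*Lrrtm1*, *Nrxn2*, *Nlgn1*, *Nlgn3* and *Lrrtm4* were too low for a fold change. *Lrrtm1* (ENSMUSG00000060780, chromosome 6, 77219672 to 77234774, mm39) had 2 and 7 reads in the mutant pools against 5 and 1 in the controls. *Nrxn2* (ENSMUSG00000033768, chromosome 19, 6468761 to 6594199) had 8 and 13 against 14 and 7 reads, and *Nlgn1* (ENSMUSG00000063887, chromosome 3, 25480379 to 26386609) had 4 and 11 against 9 and 4. In all of these, mutant replicate 2 and control replicate 1 were above the other libraries, and the groups overlapped. *Nlgn3* (ENSMUSG00000031302, chromosome X, 100342774 to 100369569) had 0 and 5 against 0 and 2 reads, and *Lrrtm4* (ENSMUSG00000052581, chromosome 6, 79995860 to 80787124) had a single read, in mutant replicate 2. A count of 0 allows up to 3 reads, which is 0.0182 FPKM of *Nlgn3* in mutant replicate 1 and 0.0166 in control replicate 1, and between 0.0251 and 0.0274 FPKM of *Lrrtm4* in the 3 libraries at 0. A difference in these genes was not detectable at this depth.

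The 5 low members together had 14 and 37 reads in the mutant pools against 28 and 14 in the controls, so that their sum split by library and not by genotype. Photoreceptor markers moved with them: the 9 used summed to 16 and 102 reads in the mutant pools against 59 and 14 in the controls. For 6 of the 9 photoreceptor markers, as for 3 of the 5 low members, mutant replicate 2 and control replicate 1 were both above the others. The share of all genes with this division was not counted. The other markers did not divide so, among them *Rcvrn* with 3 and 7 against 0 and 6 reads and *Pde6b* with 0 and 0 against 2 and 2. Among those that did, *Sag*, the gene of rod arrestin, had 8 and 29 against 20 and 4 reads. *Crx*, a photoreceptor transcription factor, had 0 and 18 against 10 and 0, and *Opn1mw* only 0 and 1 against 1 and 0. *Xist*, the RNA of the inactive X chromosome, was higher in the same pair, at 7.62 and 13.1 against 15.6 and 5.56 FPKM. Summed neuronal markers, at 1.55 and 1.63 against 1.36 and 1.61 FPKM, did not divide the libraries that way. Nor did the tested genes as a whole: deviations of same-numbered libraries correlated at r = -0.00508 over 15997 genes. The part of photoreceptor RNA or of the sex make-up of the pools in the low members was not tested.

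**Figure D4:**
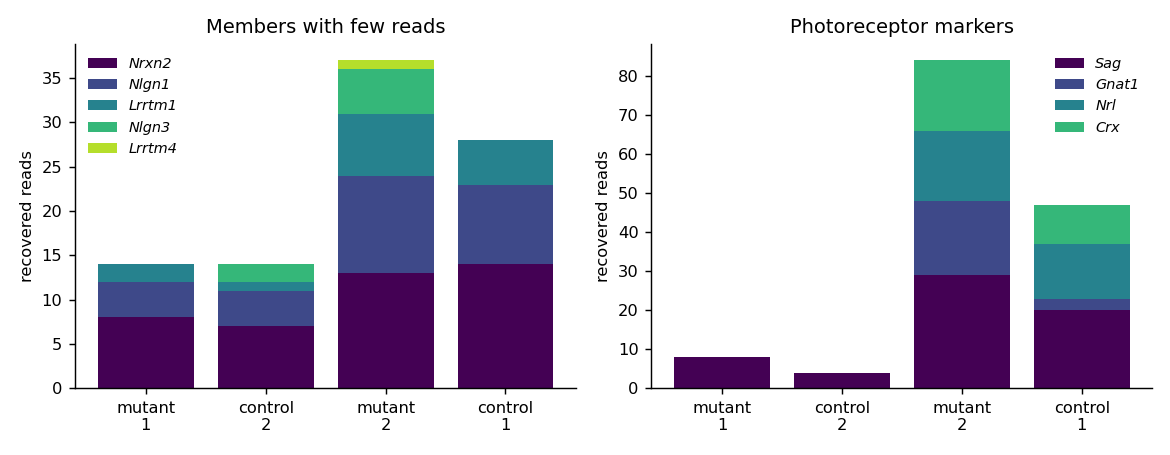
Reads by library, stacked by gene, for the 5 low members (left) and for *Sag*, *Gnat1*, *Nrl* and *Crx* (right), with the libraries ordered as mutant 1, control 2, mutant 2 and control 1. The low members sum to 14, 14, 37 and 28 reads in that order. The photoreceptor genes drawn, all taken from the markers that divide this way, are high in the same latter pair.

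Because this division crossed the genotypes, the tested members were also compared within it, a comparison chosen after the values were seen. On the log2(FPKM + 0.1) scale, *Lrrtm2* was higher by 1.0 in mutant replicate 1 than in control replicate 2 and by 0.72 in mutant replicate 2 than in control replicate 1. *Nlgn2* was higher by 0.22 and 0.18 and *Nrxn3* by 0.51 and 0.78 in the same pairs. *Lrrtm3* differed by -0.73 in the first pair and by 0.01 in the other. For the 3 members whose groups did not overlap, the sign in any such pair follows from that.

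The 5 tested genes whose profiles over the 4 libraries lay nearest to that of *Lrrtm2* were *Mx2*, *Ccdc69*, *Zmat5*, *Ddx11* and *Wnk4*, out of 11498 genes with at least 20 reads on average. Likeness was the Euclidean distance between log2(FPKM + 0.1) values after the mean of each gene was removed, and it was 0.0748, 0.0993, 0.129, 0.190 and 0.197 in that order. *Mx2*, an interferon-induced GTPase, had 39 and 27 reads in the mutant against 15 and 17 in the control libraries. *Ccdc69* had 34 and 26 against 13 and 17, *Zmat5* had 65 and 48 against 28 and 36, *Ddx11*, a DNA helicase, had 60 and 35 against 20 and 27, and *Wnk4*, a kinase of ion transport, had 59 and 49 against 28 and 28. All 5 had the highest count in mutant replicate 1, and their log2 fold changes were between 0.73 and 0.87, both of which follow from the choice by likeness. With 4 libraries, many genes can have such a profile. No other member was among the 5.

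The known partners of these proteins were taken from lists of 140 gene names, the alpha-catenins included, of which 137 were in the table and 87 were tested. None was called by limma or by voom, and the lowest adjusted p in limma was 0.749. An unadjusted p under 0.05 in limma was met by 2 of the 87, where the share over all tested genes was 6.31%. Both mutant libraries were above both controls for 12 of the 87 and below for 26, where the shares over all tested genes were 18.2% and 18.3%. The median log2 fold change was -0.06, where that of all tested genes was 0.00409. Values of partner genes below are log2 fold changes of mutant over control with their SE, and none of them passed the test.

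**Figure D5:**
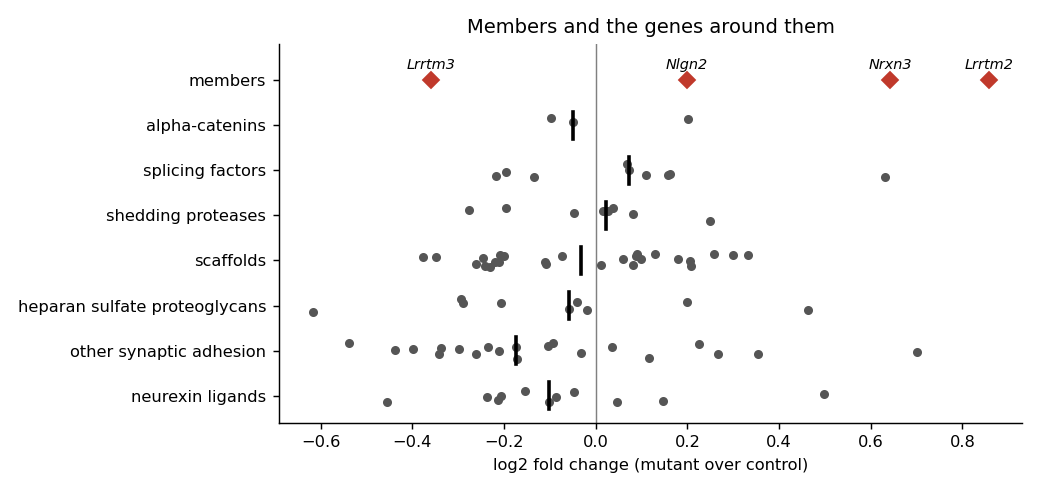
Log2 fold change of mutant over control for each tested partner gene, by list, with a bar at the list median and the 4 tested members as red diamonds. The single tested AMPA receptor gene is not drawn, the medians of the lists drawn lie between -0.17 and 0.07, and *Lrrtm2* at 0.86 is the highest of the points.

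Of 27 other neurexin ligands and regulators in the table, 11 were tested, 3 with a higher and 8 with a lower value in the mutant, and their median was -0.10. A mean under 1 FPKM was found for 19 of the 27, and the cerebellins and most neurexophilins, small secreted proteins that bind neurexins, fell under the filter. *Dag1*, the dystroglycan precursor, had 656 and 1063 reads against 1355 and 1001 and a value of -0.45 ± 0.23. *Grid1*, a receptor that neurexins reach through cerebellins, had 500 and 526 against 595 and 614 reads and a value of -0.21 ± 0.11. *Clstn1*, a calsyntenin and the most abundant of the list at 16.3 FPKM, had -0.15 ± 0.13.

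Other synaptic adhesion genes numbered 38, with 20 tested, 6 higher and 14 lower, and a median of -0.17. *Ptprf*, the receptor phosphatase LAR, was the most abundant at 17.2 FPKM and had 2127 and 2908 reads against 3726 and 3142, a value of -0.44 ± 0.14. *Igsf21*, a ligand of *Nrxn2*, rested on 10 and 9 against 5 and 4 reads, with 0.70 ± 0.40. *Tenm3*, a teneurin, had 569 and 907 against 1136 and 822 reads, with -0.40 ± 0.23. Of the 10 heparan sulfate proteoglycans, which include the glypican partner of *Lrrtm4*, 9 were tested, 2 higher and 7 lower, with a median of -0.06. *Gpc6* had 40 and 57 against 75 and 87 reads and -0.62 ± 0.24, *Sdc3* had -0.29 ± 0.13, *Gpc4* had -0.29 ± 0.21, and *Sdc2*, the most abundant at 14.2 FPKM, had -0.06.

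Inside the cell, 26 of 33 scaffold genes were tested, 13 higher and 13 lower, with a median of -0.03. *Dlgap4*, of the postsynaptic scaffold, had 1099 and 1030 against 853 and 893 reads and 0.30 ± 0.13. *Epb41l1* had -0.25 ± 0.11 and *Magi1* -0.38 ± 0.17, and *Epb41l2*, the most abundant at 12.5 FPKM, had -0.22 ± 0.11. Of the 10 proteases that can shed neurexins or neuroligins, counted with their subunits, 8 were tested, 5 higher and 3 lower, with a median of 0.02. The gamma-secretase subunit *Psenen* had 0.25 ± 0.14 at a mean of 34.7 FPKM, *Aph1a* had -0.20 ± 0.18, and *Bace1*, the beta-secretase, had -0.28 ± 0.13.

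Splicing factors of neurexin exons numbered 10, with 9 tested, 6 higher and 3 lower, and a median of 0.07. *Rbfox1* had 63 and 53 reads against 32 and 38, with 0.63 ± 0.24, while its relative *Rbfox2* had -0.20 ± 0.17 and *Ptbp1*, the most abundant at 9.72 FPKM, had -0.13 ± 0.13. Of the 4 AMPA receptor genes, whose proteins LRRTM2 binds at synapses, only *Gria1* was tested, with 15 and 21 against 8 and 14 reads and 0.40 ± 0.50. The summed level of the 4 was between 0.0766 and 0.259 FPKM in the libraries, below that of *Lrrtm2* in each of them.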

How the data were processed

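RNA was measured in 2 mutant and 2 control libraries of pooled lenses. The authors' sequencing provider used HISAT2 for alignment, featureCounts for counting and DESeq2 for testing; the deposited table holds FPKM, gene lengths, positions and biotypes, and 0 of its per-sample columns were left unused. The build is mm39 per the submitters' processing notes, and the strand setting is not given in the sources used here.

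Members and lists were chosen with earlier results of these data known. Genes with a mean of at least 0.1 FPKM were fitted on log2(FPKM + 0.1), since the deposited FPKM are not counts, with limma 3.58.1 (lmFit and eBayes with a trend, two-sided, Benjamini-Hochberg over all tested genes) in R 4.3.3, with no covariate. Standard errors and p-values measure only the spread between these pools. With 2 against 2 libraries, no exact permutation test can go below p = 0.333, and none was run. Reads were recovered from the FPKM steps and gene lengths. They came out whole for 100% of values (tolerance 1e-06), and voom was run on them, where 14 genes were called. Both fits were tested on simulated reads, with the same relative spread between libraries set for every gene, which the measured pools need not have. There limma on log2 FPKM missed most changed genes and also called unchanged ones, and voom recovered most and called no unchanged gene. Whether either fit does so on pools like the ones measured here was not tested. Poisson intervals of reads are at 95%, and the floor is 3 reads. The submitters' replicate numbers name no shared litter or batch.

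Named genes are the members, the alpha-catenins, the 3 genes with the smallest p and the most abundant gene of each partner list, the 5 profiles nearest to *Lrrtm2*, *Pdgfrb* and *Xist*. *Gm6724*, *Prob1*, *Gm22200* and the marker genes of other cells given by name were chosen after their values were seen. Some genes of the lists are not reported here. Promoters came from the RefSeq table for GRCm38.p6, and shared exon bases from the GENCODE annotation of GRCm38. Tables and figures were made in Python 3.11.15 with numpy 2.4.6, pandas 2.3.3, scipy 1.17.1 and matplotlib 3.10.9. Alternatives were other pseudocounts, filters and scalings, voom, no trend, the replicate block, a covariate for *Xist*, and leaving out each library; the block, the covariate and the left-out libraries within voom were added after the data were seen.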

Additional observations from a re-analysis of the deposited data

How the results depend on the processing

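With 2 libraries per group the count of genes called by limma depended on most choices, from 6 as reported to 2 at pseudocounts of 0.01 and of 1, 1 with no filter, 2 with a mean FPKM of at least 1, 2 with no trend, 1 with the *Xist* covariate and between 0 and 0 when any library was left out, where between 787 and 1465 genes had an unadjusted p under 0.05. With voom on reads 14 were called, with the *Xist* covariate in voom 135, and 0, 2, 18 and 44 without mutant replicate 1, mutant replicate 2, control replicate 1 and control replicate 2. The cause was not tested. The replicate numbers did not pair the samples: deviations of same-numbered libraries correlated at r = -0.00508 over 15997 genes. With the replicate block limma called 3 genes and voom 31, and *Lrrtm2* stood at 0.86 in limma and was still called by voom.

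The log2 fold change of *Lrrtm2* was between 0.65 and 0.90 under the other choices and between 0.59 and 1.17 with a library left out, that of *Nlgn2* between 0.15 and 0.24 and between 0.12 and 0.29, that of *Lrrtm3* between -0.41 and -0.17 and between -0.74 and -0.07, and that of *Nrxn3* between 0.13 and 1.15 and between 0.50 and 1.45. Of 82 such values, 71 stayed within the replicate SD, 11 moved further, mostly those of *Nrxn3*, and 0 changed direction. Much of this was fixed in advance. In this balanced design the filter, the trend, the block and the *Xist* covariate in limma leave the value itself unchanged. Leaving out a library in limma cannot move it beyond the replicate SD, nor change its direction where the groups did not overlap. Where they did not overlap, another pseudocount cannot change the direction either. Depth limits the 5 members under 0.1 FPKM, for which no fold change was fitted.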

Other observations

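The marker lists of the other cell types are given by their summed FPKM. Astrocyte and Mueller glia markers summed to 6.34 and 7.22 in the mutant pools against 7.59 and 6.23 in the controls, vessel endothelium to 8.48 and 5.60 against 8.25 and 6.67, pericyte and fibroblast to 17.2 and 14.9 against 15.3 and 16.3, and red blood cell to 25.2 and 17.2 against 34.9 and 21.6, and the groups of each overlapped. Glia of peripheral nerve markers summed to 0.324 and 0.175 against 0.440 and 0.350, with both mutant pools below both controls. Pigment epithelium, ciliary body and iris markers, led by *Optc* at a mean of 10.3 FPKM, summed to 13.8 and 14.5 against 12.0 and 10.5 and did not overlap. Most of that sum was *Optc*, at 11.5 and 12.1 against 9.67 and 7.90 FPKM, and the other 3 tested genes of the list went both ways, with log2 fold changes of 0.28 ± 0.14 (SE) for *Mitf*, -0.78 ± 0.43 for *Pmel* and -0.48 ± 0.31 for *Tyrp1*. None of these lists held a gene called by limma or voom.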
